A study of Mus musculus with 18 samples.

Results

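The genes *Gpr15lg*, *Smtnl2*, *Gm15283*, *Gm16754* and *Prelid2* were described across 18 RNA-seq libraries, as 5 of the 78239 genes in the count tables. They are little-studied genes that were listed because their counts were higher with *nsHif1a*, a normoxia-stable form of the hypoxia-inducible factor HIF1A, both in mouse retina and in a photoreceptor-like cell line. The comparison of *nsHif1a* with the eGFP control in each experiment gave the values that chose them: the genes were chosen by a higher count with *nsHif1a* in both experiments. Those values are therefore a description here, without a test. All 5 passed the filter on low counts in both experiments. In the cells, *Gpr15lg*, *Smtnl2*, *Gm15283* and *Gm16754* had at most 10 counts in any eGFP library and passed that filter through the *nsHif1a* libraries.

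In the presence of oxygen, HIF1A is hydroxylated by the EGLN oxygen sensors and degraded. In hypoxia it pairs with ARNT, binds DNA elements with a core of ACGTG or GCGTG and activates genes of glycolysis, oxygen supply and angiogenesis. In nsHIF1A, residues that are hydroxylated in normoxia are exchanged, so that the protein stays active at normal oxygen levels. *Gpr15lg* encodes a small secreted peptide of gut and skin epithelia, which is the ligand of GPR15, a receptor that directs T cells to these tissues. *Smtnl2* encodes a member of the smoothelin family of actin-associated proteins with a calponin homology domain. *Prelid2* belongs to the PRELI family, whose better known members carry phospholipids between the mitochondrial membranes. *Gm15283* and *Gm16754* are long non-coding RNA (lncRNA) genes that carry the names of their gene models.

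Retinas came from 5 mice per group, which the labels give as C57BL/6J and the methods of the study as wild-type 129S6. The mice were injected subretinally between postnatal days 29 and 32 with AAV::*nsHif1a* or AAV::eGFP, and retinas were collected 3 weeks post injection (wpi). In both viruses the transgene stood behind the mouse opsin promoter, which is active in rods, and a part of the retina was transduced, so each library holds RNA of transduced rods together with that of all other retinal cells. Cells of the mouse retinoblastoma-derived line 661W were transfected with plasmids that express *nsHif1a* or eGFP from the ubiquitous CMV promoter and harvested after 20 h, with 4 libraries per group. Every group received a vector, and no untreated sample was analysed. Nothing in the labels states that the cell libraries came from separate cultures, so *p*-values for the cells measure the spread between these libraries, which may be technical. In whole retina, fewer cells of a type and less RNA per cell cannot be told apart.

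The libraries held 12898220 to 17809585 counts. A level of 3 counts thus corresponded to between 0.168 and 0.233 CPM, a unit in which every library has the same total. The limit takes in counting error alone. Counts of *Xist*, the RNA that silences 1 of the X chromosomes in female cells, were 1 to 3 in AAV::eGFP retinas 3, 4 and 5 and 19492 to 28595 in the other 7 retinas, so that sex and vector overlap in part. The 6 γ-crystallin genes of the lens took 0.0634% to 0.28% of the counts in AAV::eGFP retinas and 0.0956% to 1.82% in AAV::*nsHif1a* retinas. In the cells, *nsHif1a* libraries 1 and 2 stood apart from the other 6 libraries on the first principal component (scores of -45.0 and -46.6 against 7.31 to 23.7). The 661W libraries hardly contained photoreceptor transcripts. The summed level of 8 rod marker genes was 8.89 to 13.2 CPM in the cells and 34300 to 48600 CPM in the retinas, and only 2 of the 8 rod genes and 1 of 8 cone genes were tested in the cells.

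The level of *Hif1a* itself, which includes the transgene, served as a check of the labels. In the retina, *Hif1a* had 9064, 10174, 11286, 9650 and 8713 counts in AAV::eGFP libraries 1 to 5 and 8565, 10846, 10283, 10013 and 10909 counts in AAV::*nsHif1a* libraries 1 to 5. The groups overlapped, with a log2 fold change (log2FC) of 0.05 (SE 0.04, adjusted *p* = 0.5, limma with Benjamini-Hochberg adjustment). In the cells, 2183 to 2735 counts with eGFP stood against 17668 to 33418 with *nsHif1a*, which gave a log2FC of 3.26 (SE 0.13, adjusted *p* = 1.2e-05, limma). HIF targets were listed by hand with earlier results of these data known, so they are no independent check of the labels. Their mean log2 CPM, over the 41 that were tested in both experiments, separated the groups in both. It was 6.34 ± 0.03 with AAV::eGFP and 6.97 ± 0.15 with AAV::*nsHif1a* (SD, n = 5, exact two-sided permutation test, *p* = 0.0079, the smallest value this design allows), and 5.78 ± 0.02 and 6.49 ± 0.12 in the cells (SD, n = 4, exact two-sided permutation test, *p* = 0.029, the smallest value this design allows).

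*Gpr15lg* (ENSMUSG00000096001), the secreted GPR15 ligand, lies on the minus strand of chromosome 14 of GRCm39 at chr14:36824097-36835979 and has 825 exonic bases. The start of its canonical transcript lies inside this span, and the bases before that start are shown because they hold an ACGTG core, given in capitals, with its first base 164 bases before the start. The sequence is that of GRCm39, chr14:36832059-36832308, minus strand, written 5′ to 3′ and ending at the base before the start.
Gpr15lg: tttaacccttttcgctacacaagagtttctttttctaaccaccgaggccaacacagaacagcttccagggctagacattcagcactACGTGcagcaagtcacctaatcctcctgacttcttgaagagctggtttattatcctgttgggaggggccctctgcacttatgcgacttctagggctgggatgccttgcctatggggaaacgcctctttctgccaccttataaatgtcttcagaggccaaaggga

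In the retina, *Gpr15lg* had 9, 3, 16, 10 and 12 counts in AAV::eGFP libraries 1 to 5 and 140, 443, 310, 348 and 492 counts in AAV::*nsHif1a* libraries 1 to 5. Every AAV::*nsHif1a* retina was above every AAV::eGFP retina, with library 1 the lowest and library 5 the highest of its group. The level was 0.687 ± 0.309 CPM with AAV::eGFP and 23.1 ± 7.99 CPM with AAV::*nsHif1a* (SD, n = 5), a log2FC of 5.07 (SE 0.68). In the cells, *Gpr15lg* had 0, 1, 4 and 2 counts in eGFP libraries 1 to 4 and 53, 24, 70 and 38 counts in *nsHif1a* libraries 1 to 4. The transcript was thus at or near the detection limit in the eGFP cells and present in each *nsHif1a* library. Over the pooled libraries the ratio of its share of counts was 24.8 (95% exact interval 11.8 to 62.5, counting error only), and the log2FC was 4.55 (SE 0.57). It ranged from 3.75 to 5.26 when each cell library was left out in turn, and the 3.75 without eGFP library 1 lay below the values of *Gm15283* (3.91) and *Smtnl2* (3.87) in the same fit. Without eGFP libraries 3 and 4, each left out alone, it was 5.26 and 5.25. Among the 14122 genes tested in both experiments, *Gpr15lg* had the largest log2FC in the retina and the 4th largest in the cells.

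The receptor of this ligand was at the limit of detection. *Gpr15* had at most 2 counts in any library of either experiment and was not tested. Of the 8 genes of the GPR15 and mucosal homing list, which holds chemokines, their receptors and integrins of T cell homing, 3 were tested in the retina and 2 in the cells, and none passed the test in either direction. T cell markers were low as well: of 8 genes only *Lck*, a kinase of T cell receptor signaling, was tested. *Lck* had a log2FC of 0.42 in the retina (SE 0.31, adjusted *p* = 0.46, limma) and rose in the cells from 2.4 ± 0.437 to 4.47 ± 0.48 CPM (SD, n = 4), a log2FC of 0.88 (SE 0.17, adjusted *p* = 0.032, limma; 0.054 with the replicate number as a block, and 0.089 and 0.097 without eGFP library 1 or 2), while *Cd3e*, *Cd3g*, *Cd4*, *Cd8a* and *Cd8b1* had 0 counts in all cell libraries. In the retina, the summed T cell level ranged from 1.45 to 12.4 CPM in AAV::eGFP libraries and from 2.62 to 7.5 CPM in AAV::*nsHif1a* libraries.

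Because *Gpr15lg* is known from epithelia, 8 epithelial genes were read beside it. None of the 6 tested in the retina passed the test, with a median log2FC of 0.22 against 0 over all genes. Their summed level was 82.3 to 101 CPM with AAV::eGFP and 80.1, 95.3, 107, 262 and 132 CPM in AAV::*nsHif1a* libraries 1 to 5, with library 4 the highest. In the cells, the same sum was 1.95 to 5.46 CPM, with *Epcam* and *Krt5* at 0 counts in every library. Lens RNA differed between the AAV::*nsHif1a* retinas as well. AAV::*nsHif1a* retinas 5 and 2, with the highest *Gpr15lg* counts, had γ-crystallin shares of 0.0956% and 0.13%, and the other 3 had 1.06% to 1.82%. The part of epithelial and lens RNA in the *Gpr15lg* values was not tested.

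**Figure D1:**
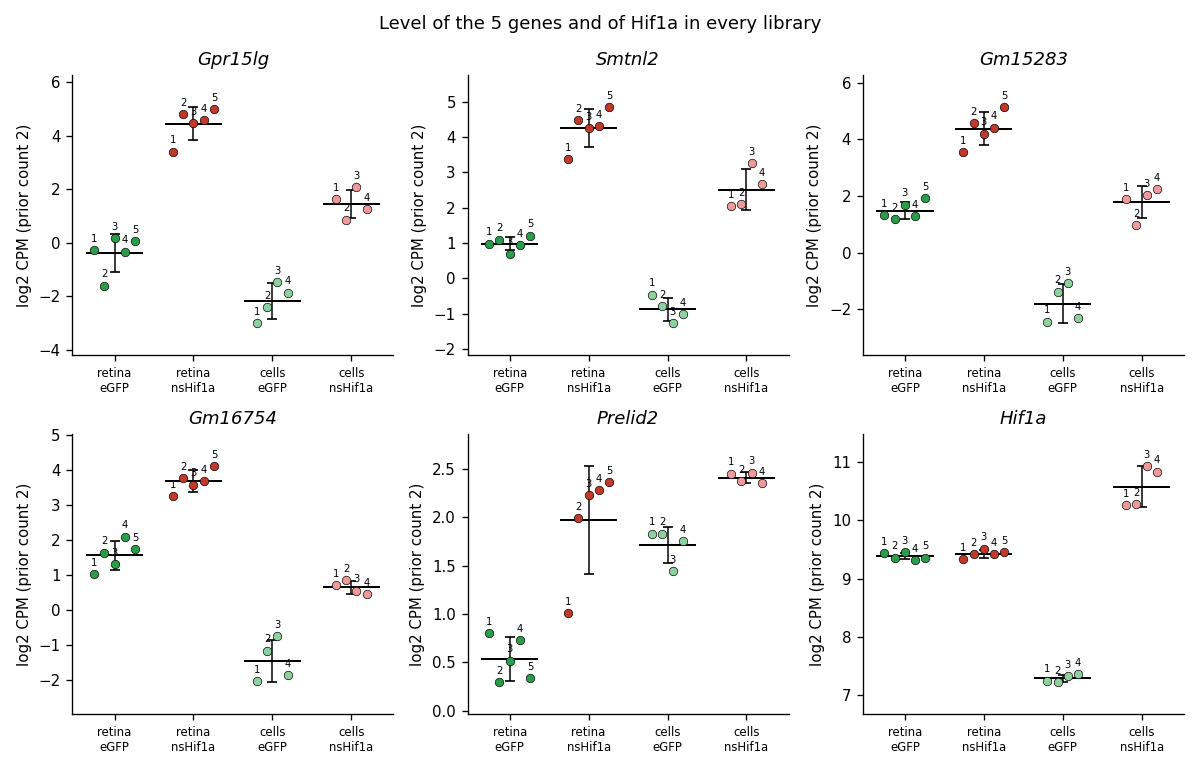
Level of the 5 genes and of *Hif1a* in each library on a log2 CPM scale (prior count 2), for retina with AAV::eGFP (n = 5), retina with AAV::*nsHif1a* (n = 5), cells with eGFP (n = 4) and cells with *nsHif1a* (n = 4). Points are libraries with their replicate number, bars are means and error bars SD. For the 5 genes the groups of each experiment do not overlap, whereas those of *Hif1a* overlap in the retina.

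*Smtnl2* (ENSMUSG00000045667), the smoothelin family member, lies on the minus strand of chromosome 11 at chr11:72279984-72302572, with 3758 exonic bases. Its counts in the retina were 24, 31, 24, 27 and 29 in AAV::eGFP libraries 1 to 5 and 137, 352, 267, 288 and 445 in AAV::*nsHif1a* libraries 1 to 5. The AAV::eGFP retinas differed little from each other and all lay below the AAV::*nsHif1a* retinas, where library 1 was again lowest and library 5 highest. The level was 1.86 ± 0.261 CPM and 19.9 ± 6.59 CPM (SD, n = 5), a log2FC of 3.35 (SE 0.37). In the cells, *Smtnl2* had 10, 7, 5 and 5 counts in eGFP libraries 1 to 4 and 71, 59, 160 and 105 counts in *nsHif1a* libraries 1 to 4. The groups did not overlap, and *nsHif1a* libraries 3 and 4 were higher than libraries 1 and 2. The level was 0.431 ± 0.131 CPM with eGFP and 5.93 ± 2.5 CPM with *nsHif1a* (SD, n = 4), a log2FC of 3.61 (SE 0.43).

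No other smoothelin gene passed the test. *Smtn*, the smoothelin of smooth muscle, had a log2FC of -0.06 in the retina (SE 0.16, adjusted *p* = 0.86, limma) and of -0.4 in the cells (SE 0.22, adjusted *p* = 0.34, limma). *Smtnl1* had at most 1 count per library and was not tested. Of 13 genes of smooth muscle and mural cells, 12 were tested in the retina and 10 in the cells, and none was called (adjusted *p* under 0.05 and absolute log2FC above 0.5). *Mylk*, the kinase of the myosin light chain, was in the retina at 190 ± 20.6 CPM with AAV::eGFP and 142 ± 16.1 CPM with AAV::*nsHif1a* (SD, n = 5), with a log2FC of -0.44 (SE 0.08, adjusted *p* = 0.0085, limma) that missed only the fold threshold. The summed level of the list was 302 to 350 CPM in AAV::eGFP and 261 to 331 CPM in AAV::*nsHif1a* retinas, and these ranges overlapped.

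*Gm15283* (ENSMUSG00000087700) is a lncRNA gene on the minus strand of chromosome 12 at chr12:73889811-73996735 and runs antisense to *Hif1a* (chr12:73948149-73996321, plus strand). The whole body of *Hif1a*, 48173 bases, lies within that of *Gm15283*, and the start of the canonical *Gm15283* transcript lies 300 bases past the end of *Hif1a*. The exons of the 2 genes share 335 bases, which is 8.84% of the 3788 exonic bases of *Gm15283*. The bases before this start are shown for their pair of ACGTG cores, which are read on the other strand and so appear as CACGT in capitals, at 91 and 19 bases before the start. The sequence is GRCm39, chr12:73996622-73996871, minus strand, 5′ to 3′, and other *Gm15283* transcripts start within it.
Gm15283: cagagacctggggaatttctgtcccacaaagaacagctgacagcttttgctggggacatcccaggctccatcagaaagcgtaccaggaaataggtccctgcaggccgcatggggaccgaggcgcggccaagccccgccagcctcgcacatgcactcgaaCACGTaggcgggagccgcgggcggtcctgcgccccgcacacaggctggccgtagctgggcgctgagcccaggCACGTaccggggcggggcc

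In the retina, *Gm15283* had 31, 33, 50, 35 and 48 counts in AAV::eGFP libraries 1 to 5 and 153, 375, 258, 309 and 543 counts in AAV::*nsHif1a* libraries 1 to 5. The groups were apart, with library 5 again the highest. The level was 2.7 ± 0.627 CPM and 21.9 ± 8.55 CPM (SD, n = 5), a log2FC of 2.91 (SE 0.36). In the cells, it had 1, 4, 6 and 1 counts in eGFP libraries 1 to 4 and 63, 26, 67 and 77 counts in *nsHif1a* libraries 1 to 4. These groups did not overlap either, and *nsHif1a* library 2 was the lowest of its group. The pooled ratio was 18.2 (95% exact interval 10.2 to 35.8, counting error only), and the log2FC was 4.18 (SE 0.51).

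The counts of *Gm15283* were set against those of its sense partner. In the retina, its counts were 0.324% to 0.551% of those of *Hif1a* in AAV::eGFP libraries and 1.79% to 4.98% in AAV::*nsHif1a* libraries. The ratio of the 2 genes thus separated the groups. Since *Hif1a* overlapped between the retinal groups, this repeats the change that chose *Gm15283* and is a description. In the cells, where the plasmid raised *Hif1a* counts, they were 0.0396% to 0.219% with eGFP and 0.147% to 0.29% with *nsHif1a*, and the groups overlapped. Of the 50-base words in *Gm15283* transcripts, 9.8% are found in *Hif1a* transcripts on the opposite strand. The authors counted reads by strand, and whether reads of the plasmid transcript contributed to the *Gm15283* counts in the cells was not tested.

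**Figure D2:**
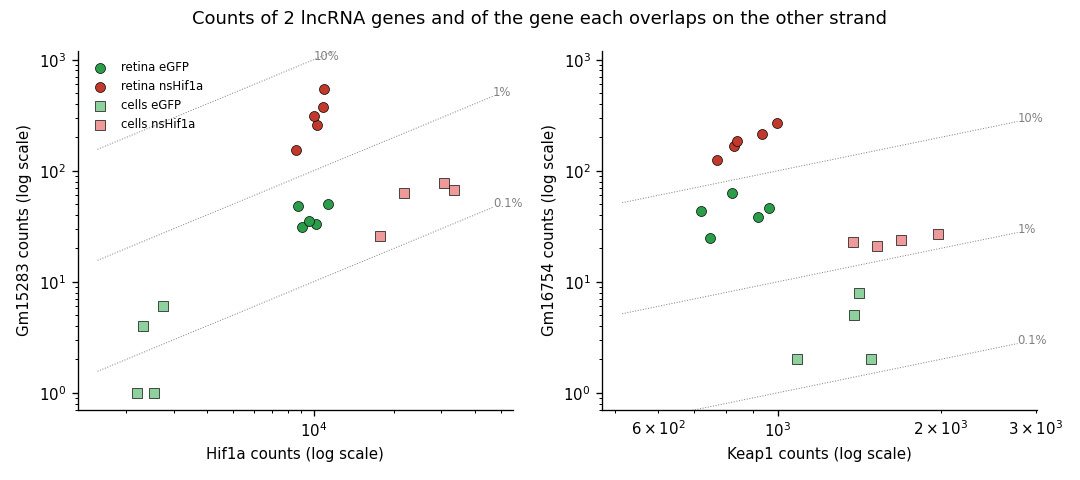
Counts of *Gm15283* against *Hif1a* (left) and of *Gm16754* against *Keap1* (right) in each library, both axes on a log scale. Circles are retinas, squares are cells, and dotted lines mark 0.1%, 1% and 10% of the partner's counts. *Gm15283* in AAV::*nsHif1a* retinas lies above 1% of *Hif1a* without a shift of *Hif1a* to the right, whereas in the cells both genes shift together.

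*Gm16754* (ENSMUSG00000097439) is a lncRNA gene on the plus strand of chromosome 9 at chr9:21136416-21144504. Its 3′ part overlaps *Keap1* (chr9:21141026-21150679, minus strand), which encodes the sensor protein that holds the oxidative stress factor NRF2 in check, over 3479 bases. The exons of the 2 genes share 404 bases, 15.2% of the exonic bases of *Gm16754*. The bases before its start are shown because they hold an ACGTG core on the other strand, at 128 bases before the start and written CACGT in capitals. The sequence is GRCm39, chr9:21136166-21136415, plus strand, 5′ to 3′.
Gm16754: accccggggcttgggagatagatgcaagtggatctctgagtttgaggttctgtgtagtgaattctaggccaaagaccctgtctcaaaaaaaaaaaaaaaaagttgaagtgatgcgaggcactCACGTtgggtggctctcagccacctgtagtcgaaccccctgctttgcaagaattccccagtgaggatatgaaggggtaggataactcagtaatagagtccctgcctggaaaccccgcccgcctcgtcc

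In the retina, *Gm16754* had 25, 46, 38, 63 and 43 counts in AAV::eGFP libraries 1 to 5 and 126, 214, 168, 186 and 269 counts in AAV::*nsHif1a* libraries 1 to 5. All AAV::*nsHif1a* retinas were higher than all AAV::eGFP retinas. The level was 2.93 ± 0.864 CPM and 13 ± 2.84 CPM (SD, n = 5), a log2FC of 2.13 (SE 0.21). In the cells, *Gm16754* had 2, 5, 8 and 2 counts in eGFP libraries 1 to 4 and 27, 24, 23 and 21 counts in *nsHif1a* libraries 1 to 4. The 4 *nsHif1a* libraries were close to each other and all above the eGFP libraries. The pooled ratio was 5.24 (95% exact interval 3.11 to 9.37, counting error only), and the log2FC was 2.47 (SE 0.37).

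*Keap1* on the opposite strand was not called. *Keap1* had log2FC values of 0.06 in the retina (SE 0.05, adjusted *p* = 0.46, limma) and 0.23 in the cells (SE 0.1, adjusted *p* = 0.26, limma). The ratio of *Gm16754* counts to *Keap1* counts, in percent, was 3.34% to 7.67% in AAV::eGFP and 16.3% to 27% in AAV::*nsHif1a* retinas, and 0.134% to 0.567% and 1.36% to 1.67% in the cells. The ratio separated the groups in both experiments. *Gm16754* was chosen for a higher count and *Keap1* was not called, so the ratio repeats the change that chose the gene and is a description.

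*Prelid2* (ENSMUSG00000056671), the PRELI family member, lies on the minus strand of chromosome 18 at chr18:42008648-42084468, with 2025 exonic bases. In the retina it had 21, 17, 21, 23 and 15 counts in AAV::eGFP libraries 1 to 5 and 25, 61, 64, 69 and 78 counts in AAV::*nsHif1a* libraries 1 to 5. Library 1 lay only just above the AAV::eGFP retinas and far below the other AAV::*nsHif1a* retinas. The level was 1.33 ± 0.227 CPM and 3.99 ± 1.26 CPM (SD, n = 5), a log2FC of 1.54 (SE 0.28). In the cells, *Prelid2* had 57, 53, 44 and 43 counts in eGFP libraries 1 to 4 and 95, 72, 92 and 84 counts in *nsHif1a* libraries 1 to 4. The groups were narrow and apart, at 3.17 ± 0.399 CPM and 5.19 ± 0.202 CPM (SD, n = 4). The log2FC of 0.72 (SE 0.13) was the smallest of the 5 genes in either experiment, and it was 0.72 (SE 0.15) when replicate numbers entered as a block, and then no longer past the thresholds set for calling a gene (adjusted *p* under 0.05 and absolute log2FC above 0.5).

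The relatives of *Prelid2* did not pass these thresholds in either experiment. *Prelid1*, which moves phosphatidic acid, had a log2FC of 0.34 in the retina (SE 0.05, adjusted *p* = 0.0033, limma), below the threshold for the fold change, and of -0.11 in the cells (SE 0.06, adjusted *p* = 0.35, limma). *Prelid3a* had a log2FC of -0.05 in the retina (SE 0.11, adjusted *p* = 0.83, limma) and was not tested in the cells, and *Prelid3b* had values of 0 (SE 0.07, adjusted *p* = 0.99, limma) and -0.13 (SE 0.05, adjusted *p* = 0.18, limma). *Triap1*, the partner protein of these carriers, had a log2FC of -0.2 in the retina (SE 0.13, adjusted *p* = 0.41, limma) and 0.07 in the cells (SE 0.08, adjusted *p* = 0.65, limma). Of 13 genes of mitochondrial phospholipid synthesis, 12 were tested in the retina and 11 in the cells, with medians of -0.04 and -0.08 against 0 over all genes, and none passed the test.

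For each of the 5 genes, every *nsHif1a* library was above every eGFP library in both experiments, as was the case for 3.25% of the 18859 genes tested in the retina and 7.51% of the 15962 tested in the cells. All 5 were past the thresholds for a higher level in both experiments. In the retina, 203 genes (1.08%) were past them, in the cells 193 genes (1.21%, or 105 genes with the replicate number as a block), and 33 of the 14122 genes tested in both (0.234%) were past them in both. Nothing is read from these counts for the 5 genes, since the same comparisons chose them. With the 7 retinas alone that had *Xist* counts (2 with AAV::eGFP and 5 with AAV::*nsHif1a*), which was added once the data had been seen, the log2FC was 5.85 for *Gpr15lg* (SE 1.43), 3.31 for *Smtnl2* (SE 0.61), 3.19 for *Gm15283* (SE 0.62), 2.38 for *Gm16754* (SE 0.31) and 1.54 for *Prelid2* (SE 0.43), and *Gpr15lg* and *Prelid2* were then not past the thresholds. Ordered by the smaller of the 2 log2FC values, *Gpr15lg*, *Smtnl2*, *Gm15283* and *Gm16754* were at places 1 to 4 of the 33 genes, and *Prelid2* was at place 19. Relative to gene length, *Gpr15lg* reached the highest level of the 5 in AAV::*nsHif1a* retinas, with 28 CPM per kb of exon, followed by 5.77 for *Gm15283*, 5.3 for *Smtnl2*, 4.89 for *Gm16754* and 1.97 for *Prelid2*. In AAV::eGFP retinas the same levels lay close together, between 0.494 for *Smtnl2* and 1.1 CPM per kb for *Gm16754*.

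**Figure D3:**
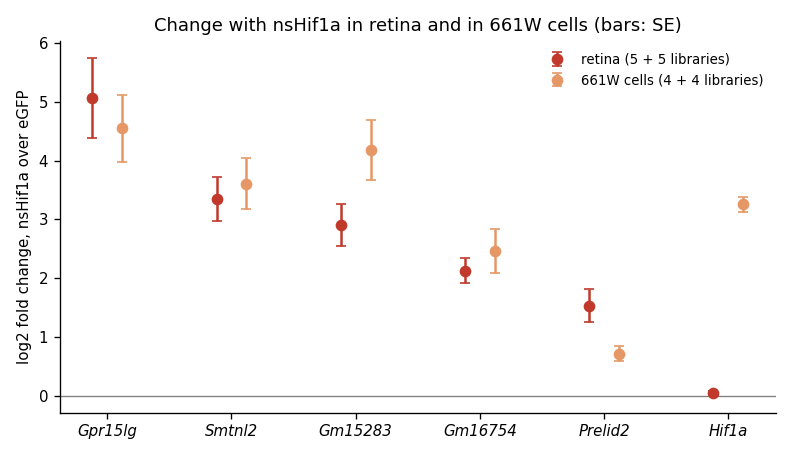
log2 fold change of *nsHif1a* over eGFP for the 5 genes and *Hif1a* in the retina (5 against 5 libraries) and in 661W cells (4 against 4 libraries), with SE as error bars. *Gpr15lg* has the largest value of the 5 genes in both with all libraries, *Prelid2* the smallest of the 5 genes, and *Hif1a* differs in the cells only.

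The size of the response in retina and cells was compared with an interaction term over all 18 libraries (limma, Benjamini-Hochberg adjustment). The difference is taken between the same 2 comparisons that chose the genes, where a higher level in each was the criterion. The values of the 5 genes are therefore a description, without a test. None of the 5 genes passed, in a test that 2.33% of 20999 genes passed, and nothing is read from this for the 5 genes. The difference in log2FC, retina minus cells, was 0.4 for *Gpr15lg* (95% interval -1.84 to 2.64). It was -0.36 for *Smtnl2* (-1.71 to 0.99) and -0.29 for *Gm16754* (-1.33 to 0.75). *Gm15283* had the largest estimate toward the cells with -1.33 (-3.0 to 0.34). *Prelid2* had the largest toward the retina with 0.82 (0.17 to 1.47), and without AAV::*nsHif1a* retina 1 this difference was 1.01. The interval of *Gpr15lg* holds differences of more than 2-fold in both directions, so a like response in the 2 systems was not shown.

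The control levels of retina and cells differed for 91.8% of all genes in the same fit (50.9% higher in the retina and 40.9% higher in the cells). The eGFP libraries of the cells also entered the choice of the genes, so the differences are given as a description, without a test. With eGFP, the retinas exceeded the cells by 4.0 on the log2 scale for *Gm15283* (SE 0.7), by 3.55 for *Gm16754* (SE 0.39), by 2.77 for *Gpr15lg* (SE 0.96) and by 2.18 for *Smtnl2* (SE 0.58). For the first 3 of these, the cell libraries held only 0 to 8 counts each. *Prelid2* went the other way and was lower in the retina, with a difference of -1.13 (SE 0.24). Tissue, vector system and table cannot be told apart in this comparison. Without cell eGFP library 1, which had 0 *Gpr15lg* counts, the difference for *Gpr15lg* was 1.93.

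The genes that surround the 5 loci were read to see whether the higher level extended to neighbors. Of 211 annotated genes within 500 kb of the 5 gene bodies, 69 were tested in the retina and 55 in the cells. In the retina, none was called higher and 1 was called lower, against 1.08% and 0.912% of all genes. In the cells, 1 was called higher, which was *Hif1a* itself, and none lower, against 1.21% and 0.0626% of all genes. The median absolute log2FC of the neighbors was 0.1 in the retina and 0.09 in the cells, against 0.11 and 0.12 over all genes.

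The nearest genes on each side are given by locus. *Gpr15lg* lies 3.6 kb from *Cdhr1*, a photoreceptor cadherin, and 3.1 kb from *Ghitm*, a mitochondrial inner membrane protein. *Cdhr1* was at 1330 CPM with AAV::eGFP and 1320 CPM with AAV::*nsHif1a* (log2FC 0, SE 0.07, adjusted *p* = 0.99, limma), and *Ghitm* had a log2FC of 0.05 (SE 0.05, adjusted *p* = 0.56, limma). *Lrit2*, 28.4 kb away, had a log2FC of -0.12 (SE 0.05, adjusted *p* = 0.21, limma). In the cells, of these only *Ghitm* was tested (log2FC 0.23, SE 0.05, adjusted *p* = 0.058, limma), so none of these neighbors passed the test.

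Around *Smtnl2*, *Tekt1* (26.7 kb away) had a log2FC of -0.12 in the retina (SE 0.15, adjusted *p* = 0.67, limma), and *Spns2*, a sphingosine-1-phosphate transporter 39.9 kb away, of 0.33 (SE 0.15, adjusted *p* = 0.23, limma). *Mybbp1a*, 29.5 kb away, was slightly lower in the retina (-0.24, SE 0.06, adjusted *p* = 0.033, limma), short of the fold threshold, and had -0.16 in the cells (SE 0.06, adjusted *p* = 0.16, limma). *Fbxo39* was tested in the cells only (-0.06, SE 0.37, adjusted *p* = 0.95, limma). None of these genes was called in either experiment.

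At the *Gm15283* locus, *Snapc1* starts 14.5 kb beyond the antisense gene and had a log2FC of 0.04 in the retina (SE 0.05, adjusted *p* = 0.74, limma) and -0.06 in the cells (SE 0.2, adjusted *p* = 0.91, limma). *Syt16* (-0.12, SE 0.1, adjusted *p* = 0.54), *Prkch* (0.03, SE 0.18, adjusted *p* = 0.95) and the lncRNA gene *Gm48653* (-0.02, SE 0.2, adjusted *p* = 0.97, all limma) were tested in the retina only. Next to *Gm16754*, *Pde4a*, a cAMP phosphodiesterase, had a log2FC of 0.11 in the retina (SE 0.07, adjusted *p* = 0.41, limma) and -0.01 in the cells (SE 0.08, adjusted *p* = 0.97, limma), and *Atg4d*, an autophagy protease, had 0.02 (SE 0.05, adjusted *p* = 0.83, limma) and -0.06 (SE 0.07, adjusted *p* = 0.65, limma). *S1pr5*, a receptor 9.7 kb away, was at 0.984 CPM and 1.56 CPM in the retina (log2FC 0.71, SE 0.28, adjusted *p* = 0.16, limma), and a lncRNA gene without a symbol, 69.1 kb away, had -0.06 (SE 0.29, adjusted *p* = 0.92, limma).

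*Prelid2* has few genes nearby, and its nearest tested ones were *Sh3rf2* at 101.1 kb, tested in the cells (log2FC 0.65, SE 0.53, adjusted *p* = 0.53, limma), and *Lars1*, a leucine tRNA ligase at 250.9 kb, with 0.06 in the retina (SE 0.06, adjusted *p* = 0.55, limma) and 0.24 in the cells (SE 0.04, adjusted *p* = 0.021, limma), below the fold threshold.

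**Figure D4:**
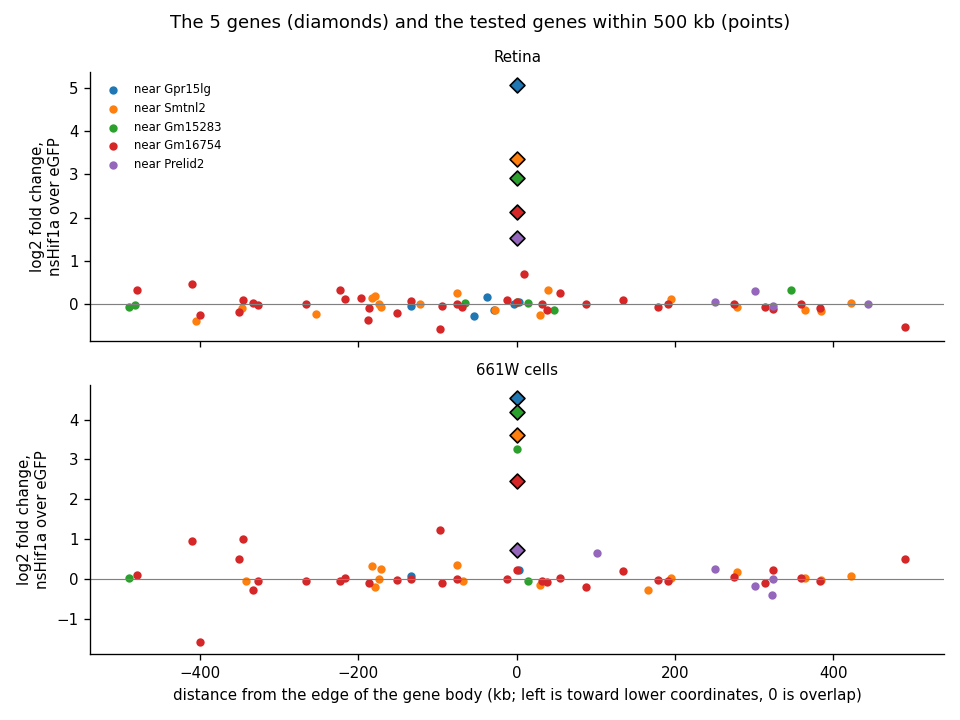
log2 fold change of *nsHif1a* over eGFP for the 5 genes (diamonds at 0) and for the tested genes within 500 kb of each (points) against the distance from the gene body in kb, in the retina (top) and in 661W cells (bottom). In the retina all neighbors lie below the diamonds, which were chosen for a higher level. In the cells the point at 0 among the diamonds is *Hif1a*, which overlaps *Gm15283* and carries the plasmid counts. Some points near *Gm16754* lie above the *Prelid2* diamond (0.72) in the cells, up to 1.24, and none of them was called.

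Promoter windows from 250 bases before to 50 bases after the canonical start were searched on both strands for these cores, ACGTG and GCGTG. The former was present in 4 of the 5 genes. Of 78166 promoters, 16.3% hold one, and 34.5% hold at least 1 of the 2 motifs. These are the promoters of all annotated genes in the count tables, most of which were not tested. The share among tested genes alone was not determined, so no enrichment is read from these shares. Beside the cores shown above, *Gpr15lg* had a GCGTG at 30 bases after the start. *Prelid2* had an ACGTG at 8 bases after its start and a GCGTG at 10 bases before and at 21 bases after it. *Smtnl2* had neither motif in this window, and with 1000 bases before and 100 after the start it had a GCGTG at 260 bases before. In that longer window, 65.6% of all promoters hold a motif. The *Smtnl2* window is shown for comparison up to the outermost annotated start (GRCm39, chr11:72302573-72302789, minus strand, 5′ to 3′), and it is rich in G and C and free of capitals.
Smtnl2: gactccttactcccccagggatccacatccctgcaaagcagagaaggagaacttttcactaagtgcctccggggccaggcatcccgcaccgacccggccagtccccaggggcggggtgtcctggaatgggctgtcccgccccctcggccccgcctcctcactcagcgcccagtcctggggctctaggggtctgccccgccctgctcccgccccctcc

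The level of the 5 genes was then set beside that of the HIF targets in each library. Changes are log2 differences from the eGFP mean of the same experiment, over the 41 targets for the HIF mean. In AAV::*nsHif1a* libraries 1 to 5, the HIF mean was higher by 0.41, 0.72, 0.62, 0.59 and 0.8. *Gpr15lg* was higher by 3.81, 5.2, 4.86, 4.97 and 5.38 in the same libraries, and *Smtnl2* by 2.39, 3.49, 3.27, 3.32 and 3.86. Library 1 was the lowest and library 5 the highest for the HIF mean and for each of the 5 genes. Libraries 3 and 4, which were close in the HIF mean, were the only pair in another order for *Gpr15lg*, *Smtnl2*, *Gm15283* and *Gm16754*, so that 9 of 10 pairs of libraries had the order of the HIF mean. For *Prelid2* this was so for 7 of 10 pairs. *Hif1a*, whose level overlapped between the retinal groups, had the order of the HIF mean in 8 of 10 pairs. How many pairs other genes share with the HIF mean was not determined, so nothing is said on whether the order is particular to these genes.

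*Gm15283* was higher by 2.06, 3.09, 2.73, 2.93 and 3.65 in AAV::*nsHif1a* libraries 1 to 5, *Gm16754* by 1.69, 2.2, 2.02, 2.11 and 2.55, and *Prelid2* by 0.47, 1.45, 1.69, 1.74 and 1.82. *Gpr15lg*, *Smtnl2*, *Gm15283* and *Gm16754* thus put the 5 libraries in 1 order (1, 3, 4, 2, 5), and 8 of 10 pairs were in this order for *Prelid2*. The 8 rod markers ran the other way, with none called and summed levels of 45600, 39100, 39900, 39100 and 34300 CPM in libraries 1 to 5, against 43900 to 48600 CPM with AAV::eGFP. How the number of transduced rods contributed to the order of the libraries was not tested. Within the AAV::eGFP retinas, between 2 and 7 of 10 pairs had the order of the HIF mean.

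In the cells, the HIF mean was higher by 0.64, 0.61, 0.86 and 0.76 in *nsHif1a* libraries 1 to 4, and *Hif1a* by 2.96, 2.99, 3.64 and 3.54. *Smtnl2* was higher by 2.92, 2.97, 4.12 and 3.54, and *Gpr15lg* by 3.82, 3.04, 4.26 and 3.43. *Smtnl2* had the same order as *Hif1a*, and *Gpr15lg*, *Smtnl2* and *Gm15283* each shared the order of the HIF mean in 5 of 6 pairs of libraries. *Gm15283* was higher by 3.68, 2.77, 3.82 and 4.03 and *Prelid2* by 0.74, 0.66, 0.75 and 0.64 in libraries 1 to 4. *Gm16754* was higher by 2.17, 2.31, 2.01 and 1.9, which shared the order in 1 of 6 pairs only. These values rest on 21 to 27 counts per library. Since libraries 1 and 2 stood apart from 3 and 4, the genes were also compared within each of these sets, which was added once the data had been seen. *Smtnl2* was higher by 2.7 within libraries 1 and 2 and by 4.08 within libraries 3 and 4, *Gpr15lg* by 3.95 and 3.33, *Gm15283* by 3.33 and 3.82, *Gm16754* by 2.38 and 1.81, and *Prelid2* by 0.58 and 0.81. These values come from the comparison that chose the genes and are a description.

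**Figure D5:**
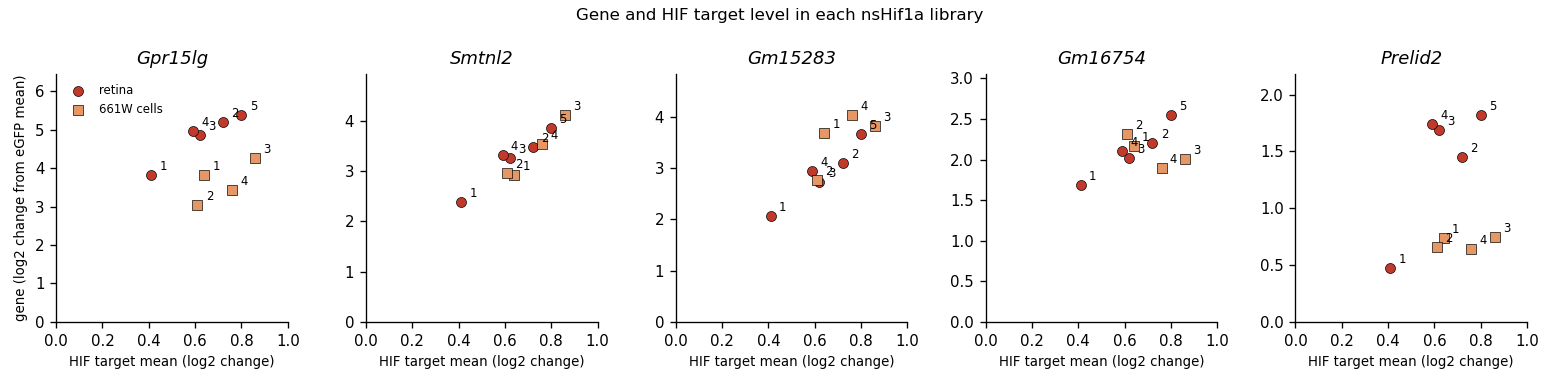
Change of each gene against the change of the mean of 41 HIF targets in every *nsHif1a* library (log2 difference from the eGFP mean of the same experiment), with circles for retinas 1 to 5 and squares for cell libraries 1 to 4. Retina 1 is lowest and retina 5 highest on both axes for all 5 genes, and *Gm16754* and *Prelid2* differ little between the cell libraries.

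The genes whose pattern over the 18 libraries was most like that of each gene were named by the root mean square difference of these log2 changes, among the 14122 genes tested in both experiments. *Smtnl2* and *Gm15283* were each other's nearest gene, with a difference of 0.52. *Gm16754* was next for both (1.0 from *Smtnl2*, 0.9 from *Gm15283*), and *Gpr15lg* the third (1.02 and 1.11). For *Gpr15lg*, *Smtnl2* (1.02) and *Gm15283* (1.11) were followed by *Stc2* (1.69), which encodes the secreted glycoprotein stanniocalcin 2. The pattern of *Gm16754* was most like that of *Atf3* (0.47), a stress-induced transcription factor, *Slc16a3* (0.6), a lactate transporter, and *Ciart* (0.62), a circadian repressor. That of *Prelid2* was most like *Egln1* (0.28), an oxygen sensor and HIF target, *Espn* (0.28), an actin-bundling protein, and *Mthfd1l* (0.31), a mitochondrial folate enzyme. The retina and the cells share no library in these values, but all changes are taken from eGFP means, so the measure mostly reflects the size of the 2 responses.

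Known HIF targets were read with the same tests. Of 45 targets, 22 were past both thresholds for a higher level in the retina and 19 of 41 tested in the cells, and none for a lower level, with median log2FC values of 0.5 and 0.55. *Bnip3*, a mitophagy receptor, had log2FC values of 0.98 in the retina (SE 0.09, adjusted *p* = 0.00017, limma) and 1.85 in the cells (SE 0.09, adjusted *p* = 3.4e-05, limma), and the glucose transporter gene *Slc2a1* had 0.58 (SE 0.08, adjusted *p* = 0.0021, limma) and 0.61 (SE 0.07, adjusted *p* = 0.0024, limma). *Egln3*, an oxygen sensor, rose by 2.38 in the retina (SE 0.34, adjusted *p* = 0.002, limma) and had 0.34 in the cells (SE 0.25, adjusted *p* = 0.48, limma). *Ankrd37* had 0.71 in the retina (SE 0.11, adjusted *p* = 0.0027, limma) and 0.98 in the cells (SE 0.19, adjusted *p* = 0.036, limma; 0.061 when replicate numbers entered as a block, and 0.053 to 0.078 without any 1 of the eGFP libraries). In the retinas with *Xist* counts alone, *Slc2a1* (0.49, adjusted *p* = 0.074, limma), *Egln3* (2.17, adjusted *p* = 0.085) and *Ankrd37* (0.67, adjusted *p* = 0.075) did not pass, and with the *Xist* class as a covariate *Slc2a1* (0.49) was below the fold threshold. *Egln3* passed in the cells without *nsHif1a* library 1 or 2 (0.78 and 0.79). Other targets had larger values in the retina, with log2FC values of 5.24 for *Adm* (SE 0.49, adjusted *p* = 0.00018, limma), which encodes the vasodilator peptide adrenomedullin, and 2.92 for *Stc2* (SE 0.36, adjusted *p* = 0.001, limma), and these were named after their values were seen. In the cells, *Adm* had at most 2 counts per library and was not tested, and *Stc2* had 0.95 (SE 0.06, adjusted *p* = 0.00011, limma).

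Markers of the other retinal tissues were read with the same tests, and none was called in either experiment. In the retina, 8 cone genes had a median log2FC of 0.01, 7 of the retinal pigment epithelium -0.18, and 8 of the endothelium 0.27, and all 6 lens genes were higher, with a median of 2.43. Their part in the values of the 5 genes was not tested. The defining lens genes had at most 2 counts in any cell library.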

How the data were processed

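RNA from 10 retinas and 8 samples of 661W cells was analysed, with groups taken from the labels. The authors made stranded mRNA libraries, aligned the paired-end reads to GRCm39 with Rsubread align, used featureCounts on the antisense strand for counting genes of the gencode M36 basic annotation, and deposited whole-number counts without filtering or normalization. Antisense genes were thus counted apart, and reads that fit several genes may be split or dropped: of the 50-base words of their transcripts, *Gpr15lg* and *Prelid2* share 0%, *Gm15283* 0.233%, *Smtnl2* 1.3% and *Gm16754* 1.78% with other genes on the same strand.
Genes with low counts were left out by filterByExpr (minimum count 10), TMM scaling was done in edgeR 4.0.16, and voomWithQualityWeights values were fitted per experiment in limma 3.58.1 under R 4.3.3, with Benjamini-Hochberg adjustment over all genes tested. CPM are TMM-scaled. The fits were tested on simulated counts. Coordinates, neighbors and promoters come from GRCm39 with gencode M39, which held 78168 of the 78239 genes. The 13 gene lists were written by hand. The 5 genes, the lists and the rules were chosen with earlier results of these data known. Named besides these 5 were *Hif1a*, the 2 nearest tested, called and overlapping neighbors, the relatives of each gene, 4 HIF targets, the 3 most alike genes and at most 2 called genes per other list. The values of 1 neighboring gene are not reported here. Replicate numbers come from the labels. In the cells, deviations from the group mean of same-numbered libraries correlated across genes with r of 0.238, 0.227, 0.259 and 0.269, so values with the replicate number as a block are given where they change a call. Tried in place of these were DESeq2 1.42.0, the quasi-likelihood test of edgeR, voom without weights, other size factors, filters, neighbor and promoter windows and panel settings, the *Xist* class and the omission of each library.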

Additional observations from a re-analysis of the deposited data

Results flagged for a closer look

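Among the 20 groups of 4 or 5 libraries tested, in which chance flags about 1 in 20, 2 values lay far from the rest of their group by Dixon's criterion. AAV::eGFP retina 2 had a *Gpr15lg* level of -1.6 on the log2 CPM scale, from 3 counts, where the other 4 AAV::eGFP retinas had 9 to 16 counts (gap over range 0.718). AAV::*nsHif1a* retina 1 had a *Prelid2* level of 1.01 on the log2 CPM scale, from 25 counts, where the other 4 had 61 to 78 counts (gap over range 0.727). The same retina was the lowest of its group for the HIF target mean and for each of the other 4 genes.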

How the results depend on the processing

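The log2FC values of the 5 genes kept their direction under each alternative run in both experiments, 18 in the retina and 14 in the cells. *Smtnl2* and *Gm15283* were past the thresholds for a higher level in each of these, whereas *Prelid2* was not with the *Xist* class as a covariate in the retina, nor without a filter, with the replicate block or without eGFP library 1 in the cells, and *Gm16754* was not with DESeq2 or without eGFP library 2 in the cells. Counts over all genes moved more. In the retina, the 172 genes called lower became 111 without sample weights, 113 without a filter and 59 with the replicate block, and the 203 called higher became 104 with the *Xist* class as a covariate and 64 (with 76 lower) in the libraries with *Xist* counts alone. In the cells, 193 higher and 10 lower genes became 332 and 34 with DESeq2 and 105 and 2 with the replicate block, and the lower genes became 3 with edgeR, 6 without sample weights and 16 without a filter. Called neighbors in the retina (0 higher, 1 lower) became 0 lower without sample weights and within 250 kb, 2 lower without a filter and 1 higher within 1000 kb, and those in the cells (1 higher, 0 lower) became 3 higher with DESeq2 and 2 higher within 1000 kb. The cause was not tested.

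Leaving out each library in turn gave 137 to 313 genes higher (the most without AAV::eGFP retina 2) and 82 to 215 lower in the retina (82, 101, 98 and 88 without AAV::eGFP retinas 4 and 5 and AAV::*nsHif1a* retinas 2 and 3), with 0 to 1 neighbors lower. In the cells it gave 82 to 1201 genes higher and 2 to 682 lower, with 82 and 87 higher without eGFP libraries 1 and 2 and 1201 and 1194 higher without *nsHif1a* libraries 3 and 4, and 1 to 7 neighbors higher and 0 to 1 lower. The retina minus cells difference, also a description, ranged from -0.2 to 1.24 for *Gpr15lg* (-0.2 and -0.16 without cell eGFP libraries 3 and 4). For *Smtnl2* it ranged from -0.65 to 0.13 (0.13 and 0.1 without cell *nsHif1a* libraries 3 and 4). For *Prelid2* it ranged from 0.72 to 1.01, with 1.01 without AAV::*nsHif1a* retina 1. The control difference of *Gpr15lg*, given as a description, ranged from 1.93 to 3.37, with 1.93 without cell eGFP library 1.

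Same-numbered retinas of the 2 groups did not deviate together (r across genes from -0.148 to 0.138, number 3 alone fitting its own number best), so they share only a number. With the replicate block, retinal log2FC values were 4.99 for *Gpr15lg*, 3.41 for *Smtnl2*, 2.95 for *Gm15283*, 2.16 for *Gm16754* and 1.58 for *Prelid2*, and in the cells 4.4, 3.74, 4.22, 2.39 and 0.72. Depth limits *Gpr15lg*, *Gm15283* and *Gm16754* in the eGFP cells, with 0 to 8 counts per library.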
